A study of Mus musculus with 2 samples.

Results

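Open promoters of long noncoding RNA (lncRNA) genes were described in the ovary of aged mice. They were defined as autosomal DNase-seq regions found in both libraries that lay within 500 bp of the 5′ end of a GENCODE M21 gene of 4 types (lincRNA, antisense, processed_transcript or bidirectional_promoter_lncRNA) and more than 2 kb from every protein-coding transcription start. The rule left 971 regions of 63280 autosomal shared regions (64903 with the sex chromosomes), and these lay at 859 genes. Of the regions, 639 belonged to 565 lincRNA genes, 210 to 191 antisense genes and 122 to 103 genes typed as processed_transcript. None belonged to a bidirectional_promoter_lncRNA gene, a type that starts next to a coding gene: only 1 such gene had its 5′ end beyond 2 kb. There were 751 genes with 1 region, 104 with 2 and 4 with 3, so regions of the same gene are not independent.

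DNase-seq maps open chromatin by cutting nuclei with DNase I and sequencing the cut ends. The tissue was whole ovary of female B6CASTF1/J mice, F1 hybrids of C57BL/6J and CAST, at 18 to 20 months of age, and it formed 1 group of 2 libraries with no younger or other tissue beside it. The libraries, called biological replicates 1 and 2, are separate biosamples under the same donor entry, so their spread may be technical. With 1 group there is no contrast to test, and the values below are given as descriptions, members beside all autosomal shared regions.

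LncRNA genes are transcribed by RNA polymerase II like coding genes, and their RNAs are often capped, spliced and polyadenylated without encoding a protein. A promoter in use is usually depleted of nucleosomes, and so is cut by DNase I, while bound proteins shield short stretches inside it that appear as footprints. Some lncRNA genes serve as hosts of small nucleolar RNAs (snoRNAs) or microRNAs, some build nuclear bodies, and some silence imprinted clusters in cis. Since this is bulk tissue, a weak region may be open in few cells or only partly in many, and these cannot be told apart.

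The sequences below are windows of 300 bp at the centre of a member region, chosen to show the strongest well-studied lncRNA promoters, the region with the most footprints, an imprinted and a structural RNA, and promoters whose footprints cover a known consensus. All are from the plus strand of the C57BL/6J reference (mm10, GRCm38), not read from the hybrid animals. Capitals mark bases inside a footprint of both libraries. The windows are chr7:73558511-73558810 for 1810026B05Rik, chr3:123508331-123508630 for Snhg8, chr9:88522961-88523260 for Snhg5, chr19:5802541-5802840 for Malat1, chr7:143296511-143296810 for Kcnq1ot1 and chr12:109540823-109541122 for Meg3. They are chr2:26140381-26140680 for Tmem250-ps, chr13:43864551-43864850 for Gm33195, chr4:63979691-63979990 for 8030451A03Rik, chr7:143008071-143008370 for Tspan32os and chr17:29078901-29079200 for Trp53cor1.
1810026B05Rik: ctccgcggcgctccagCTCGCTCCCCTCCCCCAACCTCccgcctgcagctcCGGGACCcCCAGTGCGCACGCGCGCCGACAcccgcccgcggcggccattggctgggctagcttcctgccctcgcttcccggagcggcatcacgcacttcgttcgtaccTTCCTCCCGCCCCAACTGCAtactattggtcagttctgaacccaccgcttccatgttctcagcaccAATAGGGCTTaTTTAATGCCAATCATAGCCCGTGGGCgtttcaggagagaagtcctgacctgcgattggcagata
Snhg8: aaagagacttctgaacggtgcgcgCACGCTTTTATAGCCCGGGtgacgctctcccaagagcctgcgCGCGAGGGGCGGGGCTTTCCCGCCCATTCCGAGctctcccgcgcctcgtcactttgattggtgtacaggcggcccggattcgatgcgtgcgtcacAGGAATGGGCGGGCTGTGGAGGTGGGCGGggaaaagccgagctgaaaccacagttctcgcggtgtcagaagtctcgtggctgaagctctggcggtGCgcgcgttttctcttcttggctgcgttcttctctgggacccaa
Snhg5: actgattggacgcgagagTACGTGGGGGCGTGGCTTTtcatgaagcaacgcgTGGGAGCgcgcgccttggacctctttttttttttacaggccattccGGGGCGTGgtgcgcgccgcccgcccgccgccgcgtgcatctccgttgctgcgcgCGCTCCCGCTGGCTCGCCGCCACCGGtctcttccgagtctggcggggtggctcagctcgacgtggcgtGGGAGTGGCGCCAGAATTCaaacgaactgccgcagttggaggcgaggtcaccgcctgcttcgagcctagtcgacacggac
Malat1: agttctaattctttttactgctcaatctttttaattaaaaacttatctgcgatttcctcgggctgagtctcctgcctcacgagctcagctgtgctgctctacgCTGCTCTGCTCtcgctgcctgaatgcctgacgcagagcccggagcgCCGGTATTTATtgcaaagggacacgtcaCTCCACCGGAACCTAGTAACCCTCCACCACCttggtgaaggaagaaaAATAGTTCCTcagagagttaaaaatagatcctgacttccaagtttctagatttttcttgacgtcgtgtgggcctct
Kcnq1ot1: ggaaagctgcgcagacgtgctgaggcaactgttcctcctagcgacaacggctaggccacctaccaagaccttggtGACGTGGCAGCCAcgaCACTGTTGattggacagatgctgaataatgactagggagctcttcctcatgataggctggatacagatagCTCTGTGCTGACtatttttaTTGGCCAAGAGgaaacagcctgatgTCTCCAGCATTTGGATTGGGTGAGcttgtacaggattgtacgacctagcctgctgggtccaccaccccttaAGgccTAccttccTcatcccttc
Meg3: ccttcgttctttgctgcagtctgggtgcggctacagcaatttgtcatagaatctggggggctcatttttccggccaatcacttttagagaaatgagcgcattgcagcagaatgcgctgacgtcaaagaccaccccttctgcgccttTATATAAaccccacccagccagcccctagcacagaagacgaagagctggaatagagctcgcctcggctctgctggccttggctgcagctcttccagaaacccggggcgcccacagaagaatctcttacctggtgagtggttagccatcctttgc
Tmem250-ps: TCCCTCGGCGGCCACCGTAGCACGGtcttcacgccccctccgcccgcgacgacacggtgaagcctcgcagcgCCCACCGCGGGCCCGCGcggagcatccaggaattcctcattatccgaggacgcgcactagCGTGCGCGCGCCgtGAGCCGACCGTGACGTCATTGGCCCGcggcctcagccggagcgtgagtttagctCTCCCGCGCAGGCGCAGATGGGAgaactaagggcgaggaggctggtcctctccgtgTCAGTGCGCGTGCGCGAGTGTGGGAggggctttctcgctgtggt
Gm33195: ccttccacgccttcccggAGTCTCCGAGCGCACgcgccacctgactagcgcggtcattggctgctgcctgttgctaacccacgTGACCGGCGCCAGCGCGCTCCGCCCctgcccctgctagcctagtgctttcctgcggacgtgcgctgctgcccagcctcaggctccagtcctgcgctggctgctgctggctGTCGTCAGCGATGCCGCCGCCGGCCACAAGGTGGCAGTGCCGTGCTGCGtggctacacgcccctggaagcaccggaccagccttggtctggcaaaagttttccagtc
8030451A03Rik: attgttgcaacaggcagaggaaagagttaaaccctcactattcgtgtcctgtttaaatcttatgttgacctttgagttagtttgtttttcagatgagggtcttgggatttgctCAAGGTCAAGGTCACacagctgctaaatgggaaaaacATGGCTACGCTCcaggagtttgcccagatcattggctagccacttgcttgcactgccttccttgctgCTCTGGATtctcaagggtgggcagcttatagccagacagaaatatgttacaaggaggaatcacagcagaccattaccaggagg
Tspan32os: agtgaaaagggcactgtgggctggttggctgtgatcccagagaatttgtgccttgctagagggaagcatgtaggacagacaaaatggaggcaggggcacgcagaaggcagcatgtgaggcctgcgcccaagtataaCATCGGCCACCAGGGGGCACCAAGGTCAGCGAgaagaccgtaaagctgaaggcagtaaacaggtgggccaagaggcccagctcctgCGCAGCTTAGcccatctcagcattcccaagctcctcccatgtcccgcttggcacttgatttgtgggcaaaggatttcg
Trp53cor1: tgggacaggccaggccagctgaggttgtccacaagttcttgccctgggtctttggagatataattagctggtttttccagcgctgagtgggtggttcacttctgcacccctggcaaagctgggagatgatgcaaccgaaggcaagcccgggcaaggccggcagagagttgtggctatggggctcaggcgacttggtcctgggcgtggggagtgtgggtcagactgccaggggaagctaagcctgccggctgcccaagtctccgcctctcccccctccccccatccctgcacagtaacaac

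The capitals show how unevenly the windows were protected. Tmem250-ps had 128 bases in common footprints, 1810026B05Rik 107 and Snhg8 83, whereas Meg3 had 7 and Trp53cor1 none. In Meg3, on the plus strand, the 7 bases overlap TATAAA at bases 149 to 154, and the annotated 5′ end is base 179. In Snhg8, transcribed from the minus strand, the motif also lies in a common footprint, at bases 31 to 36, but the annotated 5′ end is base 74, so the match is inside the gene. The Tmem250-ps window has a cyclic AMP response element, TGACGTCA, at bases 157 to 164 in a footprint, 5′ of the annotated start at base 141 on the minus strand. Gm33195 has a CTCF consensus at bases 217 to 229 under a footprint. In 8030451A03Rik the NR5A consensus CAAGGTCA occurs at bases 114 to 121 and again at 120 to 127, as overlapping copies in the same protected run. Tspan32os has a CTCF consensus at bases 143 to 155 and an NR5A consensus at 157 to 164 in 1 unbroken protected run.

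As a check of the tissue, 6 genes that mark ovarian somatic cells had a shared region at a promoter. The peak signal, which the authors scaled for depth and which has no stated unit, was 3.81 and 4.28 at Foxl2 in replicates 1 and 2, 3.65 and 4.17 at Nr5a1, 4.19 and 5.86 at Inha, 4.50 and 7.15 at Star, 3.15 and 4.88 at Wt1 and 1.11 and 1.87 at Amh. The testis gene Dmrt1 and the liver gene Alb had no shared region. Signals were whole multiples of 0.0108 in replicate 1 and 0.00782 in replicate 2, a ratio of 1.38, and the absolute depth is unknown.

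Members were about as strong as an average open region and weaker than coding promoters. Their median signal was 1.16 in replicate 1 and 1.04 in replicate 2, or 1.10 ± 0.0870 (SD, n = 2). All autosomal shared regions had medians of 1.13 and 0.985, coding promoters (18790 regions within 500 bp of a coding start) 2.33 and 2.30, and the other 38220 regions beyond 2 kb 0.937 and 0.805. The middle 50% of the members ran from 0.700 to 2.30 in replicate 1 and from 0.664 to 2.22 in replicate 2, with extremes of 0.226 and 62.3, and of 0.149 and 27.9. A stricter list of peaks from the same libraries held 663 members in both libraries (68.3%, 95% Wilson interval 65.3 to 71.1), beside 63.5% of all autosomal shared regions and 83.0% of coding promoters. Regions of lincRNA genes had medians of 1.12 and 0.977, and those of antisense genes 1.14 and 1.08. Processed_transcript regions had higher medians, 1.82 and 1.57.

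Signals of the same region were close in both libraries. Expressed as log2 of replicate 2 over replicate 1, the median member was at -0.02 (SD over members 0.55). Of the members 92.2% lay within 2-fold of the median over all regions, as did 91.3% of all regions. The largest ratio was at A230108P19Rik, an antisense gene in an intron, with signals of 0.495 and 1.70. Next were AC125101.1 (0.947 and 2.36) and Gm36169 (0.334 and 0.758). The smallest was at 4930597A21Rik, a lincRNA gene, with 1.74 and 0.430, followed by 4930555B11Rik (2.19 and 0.649) and Gm38584 (1.61 and 0.531). Among the 15 strongest members 14 were higher in replicate 2, with a median log2 ratio of 0.62, and of the 586 autosomal regions at least as strong 95.4% were higher there too, with a median of 0.55. The 586 regions include these 15 members. The difference between libraries at the strongest members was thus also seen over all regions of at least their strength.

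**Figure D1:**
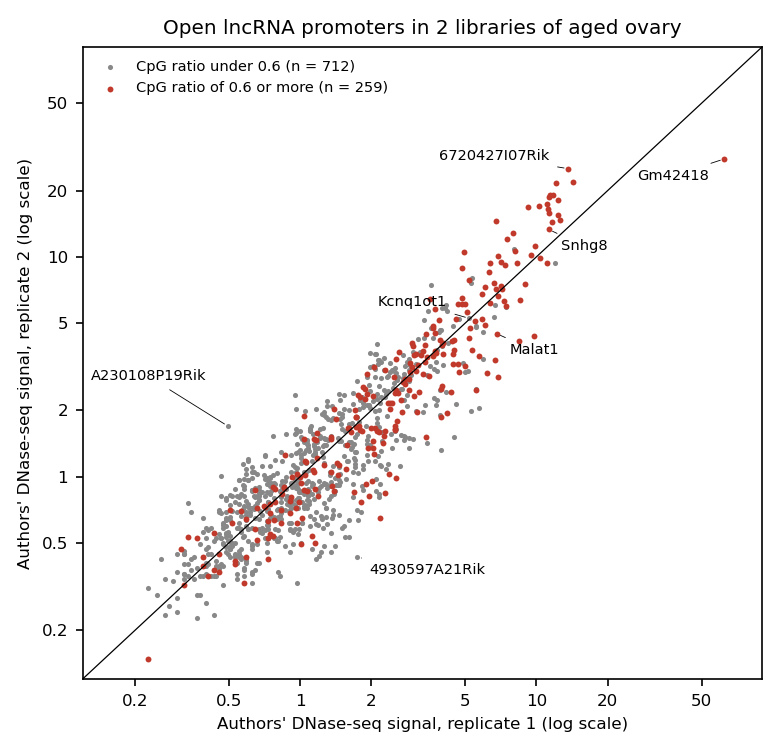
Authors' signal of each of the 971 members in replicate 1 (horizontal, log scale) and replicate 2 (vertical, log scale). Each point is a region, red where the CpG ratio is 0.6 or more (259 regions) and grey where it is lower (712), and the line marks equal signals. Red points make up most of the upper right, and points above a signal of 10 lie mostly above the line.

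The strongest region by mean rank was at Gm42418, with signals of 62.3 and 27.9. This annotated lincRNA overlaps a copy of ribosomal RNA gene sequence on chromosome 17, its 140 bp region held 2 footprints in replicate 1 and none in replicate 2, and its window has another near-identical copy in the assembly, so its signal cannot be assigned to 1 locus. The next 5 were 6720427I07Rik, a lincRNA gene on chromosome 13 (13.6 and 25.2), 1700096K18Rik on chromosome 5 (14.2 and 21.9), 1700028E10Rik on chromosome 5 (12.1 and 21.6), Gm10433 on chromosome 12 (12.4 and 18.1) and 1700113A16Rik on chromosome 3 (11.7 and 19.05). All 5 were higher in replicate 2. The seventh, 1810026B05Rik, is the lncRNA also known as Chaserr, which lies upstream of the chromatin remodeller gene Chd2 and is known to restrain it. It had 11.4 and 19.1, with 9 and 8 footprints, at chr7:73558481-73558840, and a further region of the same gene was at rank 254. Then came 2810410L24Rik (11.3 and 18.8), Gm10010 (12.3 and 15.6), Zswim6 (11.1 and 17.4), Tmem250-ps (12.6 and 14.7), Gm33195 (11.2 and 16.5), Gm12762 (11.3 and 15.9), 9430037G07Rik (11.7 and 14.3) and Gm13421 (10.3 and 17.01). Apart from Gm42418, the 15 strongest lay between 10.3 and 14.2 in replicate 1 and between 14.3 and 25.2 in replicate 2.

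Not every strong member is certain to be a noncoding promoter. There were 31 members (3.19%) at 24 genes within 500 bp of the start of a curated RefSeq mRNA, among them Zswim6, Tmem250-ps, Tctn2, Spata5l1, Ifi30, Trerf1 and Ptpmt1, and 55 (5.66%) within 500 bp of any RefSeq mRNA start. Zswim6 is typed as processed_transcript in GENCODE M21 although RefSeq holds an mRNA that starts 37 bp from its region. For 21 members, 9430037G07Rik (2 other copies) among them, the window had a further copy in the assembly at 95% identity or more over at least 80% of its length. Without those 21 the medians were 1.16 and 1.04, and without the 31 they were 1.15 and 1.02.

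Strong antisense members after the first region of 1700113A16Rik were another of its 3 regions (7.49 and 12.1) and Gm15287 on chromosome 13 (8.03 and 10.8). The genes with the most footprints were 3. Snhg5, which hosts snoRNAs, had 14 in replicate 1 and 8 in replicate 2 within chr9:88522881-88523340, at signals of 7.35 and 9.14. Gm9530, a lincRNA gene on chromosome 1, had 11 and 10 (7.07 and 7.36). Frmd8os, antisense near Frmd8, had 8 and 11 (6.90 and 6.61). The weakest were Gm28893 (0.280 and 0.258), Gm11228 (0.269 and 0.234) and Gm49700 (0.226 and 0.149), none with a footprint in either library. The last of these has 5 other copies of its window in the assembly.

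The distance limits cut through a continuum. The regions just inside 500 bp were at Mir17hg (499 bp, 2.78 and 2.77) and Gm7457 (490 bp, 1.56 and 1.08), and just outside were Gm11685 (501 bp, 1.92 and 2.44) and 1810028F09Rik (505 bp, 0.420 and 0.711). Just beyond 2 kb from a coding start was Gm37422 (2052 bp from Smyd2, 0.592 and 0.672), and just within it were A930019D19Rik (1975 bp from Ralgapa2, 0.581 and 0.610) and Gm15611 (1901 bp from Crot, 0.291 and 0.336).

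The rule fixes that members lie near the annotated 5′ end, and their position within those bounds is given as a description. The 5′ end lay inside the region for 449 members (46.2%), with median signals of 1.36 and 1.18, and beside it for 522, with 1.09 and 0.954. The centre of the region had a median offset of -38 bp, where negative is upstream, and was upstream for 581 members (59.8%). By the annotation 787 members were intergenic to protein-coding genes, 143 lay in a coding gene's intron and 41 in an exon. Of the 210 antisense regions 106 were intronic and 30 exonic, and of the 639 lincRNA regions 609 were intergenic. The median distance to a coding start was 32.0 kb.

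Looked at from the genes, most distal lncRNA 5′ ends had no region shared by both libraries. In bulk tissue of unknown depth this does not show that they were closed. Of 6799 lncRNA genes whose 5′ end lay over 2 kb from a coding start, 883 (13.0%, Wilson interval 12.2 to 13.8) had a shared region within 500 bp, beside 57.4% of protein-coding genes (11935 of 20807). The share was 12.4% for lincRNA, 11.7% for antisense and 25.9% for processed_transcript genes. It was 32.2% of the 90 genes that hold a microRNA gene (29 genes, interval 23.5 to 42.4), 40.4% of the 52 that hold a snoRNA gene (21 genes, interval 28.2 to 53.9) and 12.5% of the 6659 that hold neither. It was 14.9% at 2 to 10 kb from a coding start and 6.26% beyond 200 kb. The 5′ end was set against the 3′ end in 5973 genes longer than 1000 bp whose 3′ end also lay over 2 kb from a coding start. Of these, 12.9% were open at the 5′ end and 4.49% at the 3′ end.

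**Figure D2:**
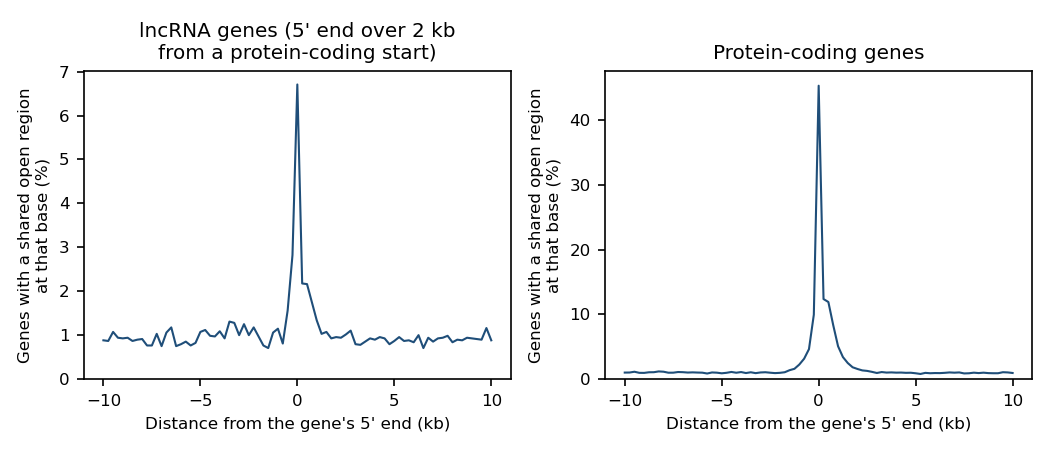
Percent of genes with a shared open region at each base offset from the gene's 5′ end, from 10 kb upstream (negative) to 10 kb downstream, for distal lncRNA genes (left) and protein-coding genes (right), on separate vertical axes that start at 0. Both curves peak at the 5′ end, at 6.71% for lncRNA genes and 45.3% for protein-coding genes, and lie near 0.882% and 0.942% at 10 kb downstream.

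Openness went with CpG content. The CpG ratio is the count of CG dinucleotides over that expected from the base composition, and 0.6 or more is usual in CpG islands. Here 259 members reached it (26.7%, interval 23.99 to 29.5), beside 26.9% of all autosomal shared regions, 72.1% of coding promoters and 5.17% of the other distal regions. The CpG-rich members had median signals of 2.51 and 2.25, and the 712 CpG-poor ones 1.01 and 0.907. Among the 20 strongest members 19 were CpG-rich, and among the 100 strongest 74 were. With members split by strength into 4 groups of 242 or 243, the CpG-rich share from the weakest to the strongest was 12.8%, 14.4%, 24.8% and 54.7%. The same share over all autosomal regions of like strength was not computed, so the rise is not read as particular to members. CpG-rich coding promoters had medians of 3.22 and 3.22. By gene, 42.6% of CpG-rich distal lncRNA 5′ ends were open (220 of 516) beside 90.1% of coding ones, and 10.6% of CpG-poor lncRNA 5′ ends beside 24.2%. In the lowest bin, under 0.2, the shares were 6.89% and 6.43%.

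**Figure D3:**
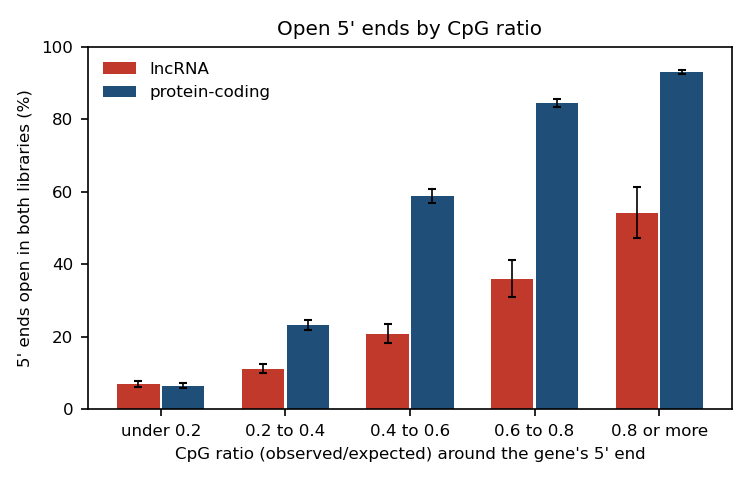
Percent of gene 5′ ends open in both libraries by CpG ratio, for distal lncRNA genes (red) and protein-coding genes (blue), with 95% Wilson intervals over genes as error bars. Shares run from 6.89% to 54.3% for lncRNA genes and from 6.43% to 93.1% for protein-coding genes, and only the lowest bin has overlapping intervals.

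Footprints followed the signal. Members held 2314 in replicate 1 and 2760 in replicate 2, of which 56.9% and 48.0% overlapped one of the other library, beside 57.9% and 51.0% over all autosomal shared regions. At least 1 footprint in both libraries was found in 765 members (78.8%, interval 76.1 to 81.2), beside 77.6% of all autosomal shared regions, and 49 members had none in either, as did 3373 of all 63280 regions. Over the 4 strength groups, weakest to strongest, the share was 43.2%, 81.5%, 91.7% and 98.8%. CpG-rich members had 3.35 and 3.85 footprints on average and CpG-poor members 2.03 and 2.48. These counts are per region, not per base, and the median widths were 259 bp for CpG-rich and 221 bp for CpG-poor members. The number of cuts behind each region is not known, so the lack of a footprint in a weak region was not interpretable.

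Among lncRNA genes of known function, 6 lists with 78 distinct symbols were examined, and 23 symbols had a member promoter. Over all 6799 distal lncRNA genes, 13.0% had a shared region at the 5′ end. The counts of the lists cannot be set against this share. The lists hold symbols not in GENCODE M21, other names of listed genes, and genes that start within 2 kb of a coding start. Malat1, an abundant nuclear-speckle RNA, had a region with signals of 6.78 and 4.47 at chr19:5802601-5802780. Neat1, which builds paraspeckles, starts next to the region that was assigned to the nearer 5′ end of Frmd8os (6.90 and 6.61). Both nuclear RNAs thus had an open start, far above the member medians in both libraries.

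SnoRNA hosts carry snoRNAs in their introns, and many of their promoters are of the kind used by ribosomal protein genes. Of 21 symbols 8 had a member promoter, 8 were open but within 2 kb of a coding start, Snhg14 and Snhg20 were not open in both libraries and 3 symbols are not in GENCODE M21. The members were Snhg8 (11.3 and 13.3), Snhg5 (7.35 and 9.14), Snhg15 (8.55 and 6.37), Dancr (5.19 and 7.82), Snhg12 (4.48 and 4.20), Snhg6 (3.65 and 4.76), Epb41l4aos (3.197 and 2.44) and Snhg17 (2.88 and 2.48). All 8 were CpG-rich and above the member median in both libraries, and their own medians were 4.83 and 5.56. Of the 18 symbols in the list of microRNA hosts 5 had a member promoter, 8 were not open in both libraries and 3 are not in GENCODE M21. Mirt1 and Mirt2, among those 8, are not established microRNA hosts. Mir143hg, among those 3, is another name of the member Carmn. The counts are thus of listed symbols, not of microRNA host genes. Mir22hg was open but within 2 kb of a coding start, with 11.9 and 25.7. The medians of the 5 members were 1.83 and 2.31. Dleu2, the host of miR-15a and miR-16-1, had 3.66 and 3.53 at the stronger of its regions, Mir17hg, the host of the miR-17-92 cluster, had 2.78 and 2.77, and Carmn, the host of miR-143 and miR-145 in smooth muscle, had 1.83 and 2.31. Dnm3os, which hosts miR-199a and miR-214, had 1.24 and 1.29, and Mir155hg, expressed in activated immune cells, had 0.764 and 0.539. Lncpint also starts 8 bp from a member region, assigned to 2210408F21Rik (1.84 and 2.17).

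Imprinted lncRNAs are transcribed from 1 parental allele, and the files do not separate the alleles. Kcnq1ot1, which silences its cluster on the paternal chromosome, had the strongest region of the list, with 5.199 and 5.24 and with 9 and 6 footprints, at a CpG ratio of 0.341. Airn, which silences Igf2r in cis, had 1.95 and 2.61, and Nespas, antisense at the Gnas cluster, had 1.88 and 2.25. Meg3, expressed from the maternal allele, had 0.990 and 0.797, and H19, also maternal, had 0.431 and 0.555, with no footprint in replicate 1 and 1 in replicate 2. These last values lay below the member medians in both libraries. Rian, Mirg, Snhg14 and Dio3os were not open in both, and Peg13 was open but is typed as sense_intronic. Of 9 symbols tied to stress, growth and the p53 response 4 had a member promoter, Tug1 was open within 2 kb of a coding start (6.95 and 9.97) and Miat was not open in both. The other 3 symbols, Norad, Chaserr and Oip5os1, are not in GENCODE M21. Norad and Chaserr are other names of the members 2900097C17Rik and 1810026B05Rik, so the list names these genes more than once. Trp53cor1, which lies upstream of the cell-cycle inhibitor gene Cdkn1a and is also called lincRNA-p21, had 1.98 and 3.15. The locus 2900097C17Rik, known as Norad and involved in genome stability, had 2.28 and 1.61, Pvt1, next to Myc, had 1.44 and 1.02, and 1810026B05Rik is described above. Of the 20 lncRNAs near developmental factor genes, many start within 2 kb of a coding start and so could not be members. Examples are Fendrr (1276 bp away), Pantr1 (926 bp) and Lhx1os (125 bp). None of the 20 had a member promoter, and since the rule partly sets this, nothing is read from it. There were 14 not open in both, Hotair, Sox2ot and Rmst among them, 5 were open within 2 kb of a coding start, and 1 symbol is not in GENCODE M21. Of these 5, Emx2os had 4.19 and 3.77, Zeb2os 1.24 and 1.11 and Haglr 1.03 and 1.04, while Foxl2os (3.81 and 4.28) and Wt1os (3.15 and 4.88) share the regions given above for Foxl2 and Wt1.

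**Figure D4:**
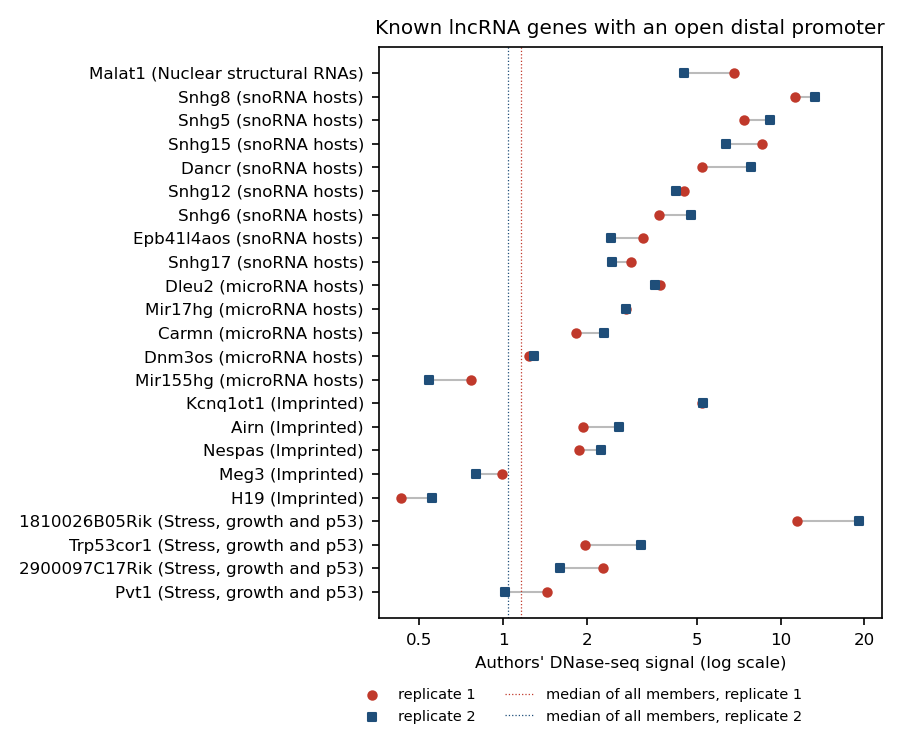
Authors' signal (horizontal, log scale) of the strongest member region of each listed lncRNA gene, replicate 1 as red circles and replicate 2 as blue squares joined by a line, grouped by list. Dotted lines mark the medians of all members, 1.16 and 1.04, and the 8 snoRNA hosts all lie to their right.

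A list of 49 coding genes of ovarian somatic identity, steroid hormone action and early response, such as Foxl2, Star, Esr1, Inhba, Jun and Klf6, was written with results in view. Of these, 7 were the nearest coding gene of a member (14.3%), beside 3.75% of all 20780 autosomal protein-coding genes, and since the list was chosen this way nothing is read from the difference. Gm44946 lay 8.70 kb from Nr2f2, an orphan receptor gene of stromal and theca cells (2.73 and 2.70), and Trp53cor1 11.8 kb from Cdkn1a. Runx2os2, in an intron of Runx2, had 2.21 and 1.31. The others were farther from their nearest coding gene. 4933412O06Rik lay 209 kb from Inhba, the inhibin beta A gene (0.678 and 0.563), and Gm12708 141 kb from Jun (0.624 and 0.586). 2610307P16Rik lay 68.0 kb from Sox4 (0.506 and 0.469) and Gm35330 137 kb from Klf6 (0.398 and 0.360). These 4 lay below the member medians in both libraries.

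Exact consensus matches were counted on both strands in the central 300 bp, and a match is no evidence of binding. The CpG ratio that splits the members was read in this same window. The SP/KLF, ETS, NRF1, USF and cyclic AMP sites contain CG, so a larger share in CpG-rich members is partly built in. All shared regions were not split in this way, so the contrast is given as a description only. The SP/KLF box GGGGCGGG was in 10.4% of members, beside 11.4% of all autosomal shared regions, and in 23.9% of CpG-rich against 5.48% of CpG-poor members. The ETS site CCGGAAGT was in 1.96% (all regions 2.16%), or 5.41% of CpG-rich and 0.702% of CpG-poor members, and the NRF1 site GCATGCGC in 2.06% (1.93%), or 5.02% and 0.983%. The CCAAT box AGCCAAT was in 5.97% (5.77%), or 7.72% and 5.34%, the USF E-box TCACGTG in 3.71% (3.23%), the YY1 site AAGATGGC in 1.85% (2.32%) and the ZNF143 site ACTACAAT in 0.309% (0.460%). The cyclic AMP response element TGACGTCA, a site of CREB factors, was in 1.96% (1.22%), or 4.63% of CpG-rich and 0.983% of CpG-poor members.

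The sites of AP-1, NR5A, GATA, TEAD, RUNX and FOX factors each had a larger share in CpG-poor than in CpG-rich members. None of these sequences contains CG, so the way the classes were set also bears on this direction. The AP-1 site TGANTCA was in 14.8% of members (all regions 12.8%), and in 16.99% of CpG-poor against 8.88% of CpG-rich ones. NR5A, the site of SF-1 and LRH-1 in steroidogenic cells (CAAGGTCA), was in 4.22% (5.81%), or 5.34% of CpG-poor and 1.16% of CpG-rich members. The GATA factor site, AGATAAG, was in 4.33% (5.19%), that of TEAD (GGAATGT) in 5.05% (4.66%), RUNX (TGTGGTT) in 6.80% (6.49%) and FOX (TGTTTAC) in 4.84% (4.24%). The CTCF consensus was in 54 members, 5.56% (7.01%), that of the estrogen receptor in 1 member, 0.103% (0.168%), and that of p53 in none (0.0111%), the Trp53cor1 window included. TATAAA was in 7.93% (8.06%). It lay on the gene's strand 20 to 40 bp before the 5′ end in 10 of the 883 open lncRNA genes, 1.13% (interval 0.616 to 2.07), and in 1.27% of the 5916 not open in both.

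**Figure D5:**
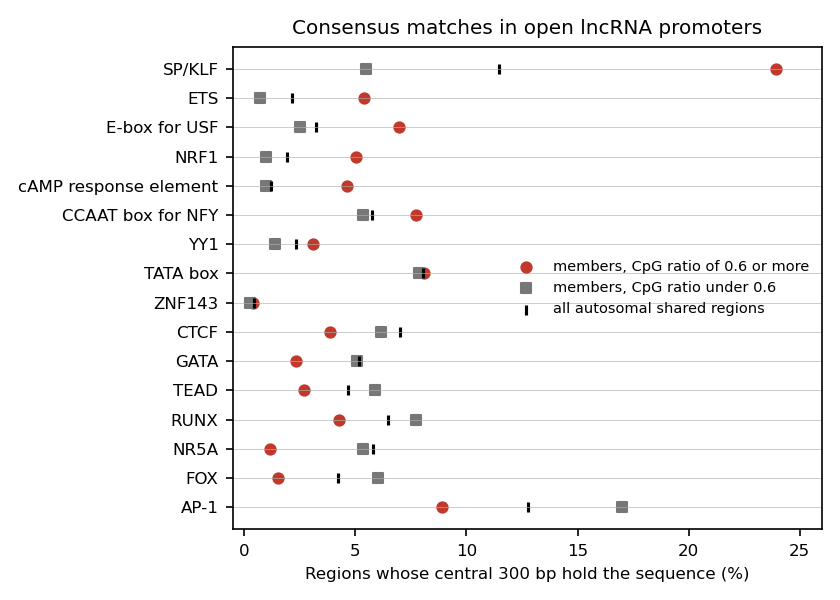
Percent of regions whose central 300 bp hold each consensus, for CpG-rich members (red circles), CpG-poor members (grey squares) and all autosomal shared regions (black ticks). SP/KLF is at 23.9% and 5.48% in the member classes and AP-1 at 8.88% and 16.99%, while TATA is near 8.06% in each. The classes were set by the CpG ratio of the same 300 bp, so differences at sites that contain CG are partly built in.

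Matches differed in how often they lay in a footprint of both libraries, counted from an overlap of 1 base. Overlapping matches, such as the NR5A copies of 8030451A03Rik, were each counted, so matches in the same window are not independent. For CTCF it was 50 of 54 matches (92.6%, beside 80.5% in all regions), for the cyclic AMP response element 13 of 19 (68.4%, beside 69.7%), for NRF1 14 of 24 (58.3%, beside 70.9%), for SP/KLF 55 of 132 (41.7%, beside 46.5%) and for NR5A 14 of 45 (31.1%, beside 20.3%). For AP-1 it was 15 of 162 (9.26%, beside 7.92%), for GATA 1 of 44 (2.27%, beside 2.47%) and for FOX none of 49 (beside 2.07%). NR5A matches under a common footprint were in the windows of Tspan32os (5.93 and 3.42), A930006L05Rik (2.44 and 3.04) and 8030451A03Rik (2.27 and 2.48), among others. Cyclic AMP response elements under a common footprint were in Tmem250-ps, Snhg15, Gm20732 (9.24 and 16.9) and Pvt1.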

How the data were processed

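Per the labels and the deposited descriptions, a longer and a shorter narrow-peak list, footprints and per-base false discovery rates were made on mm10 from each library by itself. Peak strength is the deposited signal, scaled by the authors for depth. The authors' false discovery rates (q-values) are listed only below 0.05, and the deposited footprints carry a constant p-value label of 0.01. Not given in the sources used here are the aligner, the callers and how CAST alleles were mapped. The number of reads behind a value is unknown.

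Peaks of the longer lists (95898 and 83982) that overlapped by at least 1 bp were merged, a region was shared if it had a peak of both libraries, and its signal in a library was that of the strongest peak. Distances ran from the nearest edge of a region to GENCODE M21 5′ ends, and sequence came from GRCm38.p6, whose chromosome lengths hold all coordinates. The CpG ratio and 18 consensus sequences were read in the central 300 bp, and near-identical copies were found with BLAST 2.17.0. RefSeq mRNA starts came from the same assembly. Shares have 95% Wilson intervals, which cover counting error only. Software was pandas 2.3.3, NumPy 2.4.6 and SciPy 1.17.1 under Python 3.11.15, with Matplotlib 3.10.9 for plots, and the region, distance and sequence functions were tested on simulated data.

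With 1 group of 2 libraries no test between groups was possible. Genes named are the 15 strongest by mean rank over both libraries, the 3 strongest of each gene type, the 3 weakest, the 3 with the most footprints, the 3 highest and 3 lowest ratios, those next to each distance limit and the members of 6 gene lists. An item that this rule takes in is not reported here. Genes named for a footprinted consensus, those at RefSeq mRNAs and the ovarian neighbours were chosen after values were seen. The members and the lists were chosen with earlier results of these data known. Alternatives were other lists, overlaps, distances, annotations and each library alone.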

Additional observations from a re-analysis of the deposited data

Results flagged for a closer look

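Signal also appeared in data outside the definition of the members. On the X chromosome 18 of 140 lncRNA genes with a distal 5′ end were open in both libraries (12.9%, beside 13.0% on the autosomes), with 23 regions. They included Xist, the RNA that coats the inactive X chromosome (1.31 and 0.875), Firre (2.23 and 3.11) and Jpx (1.14 and 1.05), and the strongest was at Gm6787 (6.71 and 9.22). On the autosomes 203 of the 1079 distal lncRNA 5′ ends open in replicate 1 were open there only. In replicate 2 these were 129 of 1005. The longer peak lists held 95898 and 83982 peaks. The share of all regions found in 1 library only was not computed, so nothing is read from these counts.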

How the results depend on the processing

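The number of members ran from 662 (shorter peak lists) to 1296 (1000 bp), and that of their genes from 590 to 1059, all within 1.5 times of the values given. With the shorter lists the median signals were 1.75 and 1.57, 89.7% had a footprint in both libraries, 33.7% were CpG-rich and the mean number of footprints was 3.11. With a reciprocal overlap of 50% the medians were 1.36 and 1.24, 83.2% had a footprint in both libraries and 74.9% were in the shorter lists. Within 1000 bp of the 5′ end 23.6% were CpG-rich. With peaks of 1 library alone, shared or not, regions numbered 1160 in replicate 2 and 1271 in replicate 1 and genes 982 and 1050, the median was 0.926 in replicate 1 and 0.899 in replicate 2, 74.6% to 85.6% had a footprint in that library (a different measure; 83.5% and 90.2% of the members had one in replicates 1 and 2), 67.0% in either case were in the shorter list, 23.6% to 23.7% were CpG-rich and footprints averaged 1.92 to 2.43. The cause of these moves was not tested. Of 114 values recomputed on members 97 stayed within the limit set for them. The limit was the replicate spread, the Wilson interval, 1.5 times for counts or, for the log2 ratio, the SD over members (0.55). That SD and the 1.5 times are wide limits, and the median log2 ratio could hardly pass the former. Of 36 values for the consensus sequences 34 stayed within the interval. The other 2, ZNF143 and TATA, fell to 0.103% and 6.08% when whole regions were searched. Leaving out members with near-identical copies or at RefSeq mRNA starts, chosen after seeing the data, moved none beyond these limits. No paired analysis was possible because there is only 1 group. Depth is unknown, which limits statements about weak regions and missing footprints.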

Other observations

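Other noncoding gene types were left out of the definition. Beside 12.4% of distal lincRNA genes, their open shares were lower for the larger types. Of 2779 distal genes typed TEC (to be experimentally checked) 129 had a shared region at the 5′ end (4.64%), of 280 sense_intronic genes 18 (6.43%) and of 25 sense_overlapping genes 4 (16%). Open distal lncRNA genes had more than 1 annotated transcript in 36.4% of 883 cases, and those not open in both libraries in 22.6% of 5916. Their median lengths were 7.88 and 7.54 kb.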
